A study of Mus musculus with 14 samples.

Results

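The genes that write, maintain and erase DNA methylation were followed through the 2-cell stage of mouse embryos. They are the DNA methyltransferase genes Dnmt1, Dnmt3a and Dnmt3b, the cofactor gene Dnmt3l, Uhrf1, the 5-methylcytosine dioxygenase genes Tet1, Tet2 and Tet3, and Zfp57. Each was taken from the count table by its symbol, and these 9 genes of the 56923 listed were examined in all 14 RNA-seq libraries. Every library was made from 5 embryos of superovulated ICR females of 6 to 8 weeks mated with ICR males, and there were 2 libraries in each of 7 conditions. Early 2-cell embryos were taken at 30 h and late 2-cell embryos at 54 h after the ovulation-inducing hormone hCG. From 24 h post-hCG the G&N embryos were kept in mKSOM medium with 5 µM Gne140, an inhibitor of the lactate dehydrogenases LDHA and LDHB, 50 µM nicotinamide mononucleotide (NMN) and 10 mM lactate. The G&N-L embryos had the same medium and agents but no lactate. Both conditions were sampled early and late. Another late condition, G&N-L + Lac-CoA, was in addition injected with 1 mM lactyl-CoA as zygotes. The last conditions, WT and H3K18R, were late embryos injected as zygotes with mRNA of 3 H3 histones, either wild-type or with lysine 18 replaced by arginine. No inhibitor is named in the labels of WT and H3K18R. The injected histones were made beside the embryo's own H3. The treatment labels of the early libraries differ from their titles, since they give Gne140 alone for G&N and do not mention lactate for G&N-L. Those of the Lac-CoA libraries say CoA, and the table's columns for H3K18R are named K18A. Groups follow the titles. The protocol gives 3 replicates per group, and 2 were analysed here.

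Methylation of cytosine in CpG dinucleotides is copied onto the new DNA strand by DNMT1, which UHRF1 guides to freshly replicated, hemimethylated sites. DNMT3A and DNMT3B methylate new sites, and DNMT3L, which has no catalytic activity of its own, stimulates them. The TET proteins oxidise 5-methylcytosine as a first step of its removal, and TET3 from the egg acts on the paternal genome after fertilisation. ZFP57 is a zinc finger protein that protects methylation at imprinted regions. After fertilisation most inherited methylation is lost while the imprints are kept, and at the same time the egg's mRNAs are degraded and the embryo's own genome is switched on.

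Total counts per library ran from 20350427 to 61275465, with 23473359 to 61275465 in early and 20350427 to 44448857 in late libraries. Levels are given as CPM, counts scaled to a common library size after TMM normalization. The stages were told apart by their markers. The summed level of 10 oocyte and early embryo genes was 5402 to 8299 CPM in early and 717.5 to 3295 CPM in late libraries. The summed level of 8 genes of the 2-cell program was 460.8 to 807 CPM in early and 1054 to 3366 CPM in late libraries. Of 13 cumulus cell markers, 5 stayed under 1 CPM in every library, among them Inhba and Inhbb at 0. Cyp19a1 had 13.3 to 22.9 CPM in the early libraries, and Amhr2 and Tnfaip6 reached 18.2 and 19.2 CPM in H3K18R. The 13 summed to 18.9 to 32.6 CPM early and 8.40 to 40.9 CPM late. Of 6 sperm markers, Tnp1 was at 0 and Prm2 had 12.4 to 19.3 CPM in the early libraries. The 6 summed to 15.5 to 23.6 CPM early and 2.75 to 11.6 CPM late. The share of mitochondrial counts was 2.17 to 3.85% in early libraries, 5.65 to 6.84% in the late G&N, G&N-L and Lac-CoA libraries and 10.6 to 12.2% in the WT and H3K18R libraries. In these pooled embryos, fewer cells with a transcript and less of it per cell cannot be told apart, and a level is a share of the library, not an amount per embryo. Nothing in the labels says whether the libraries of a condition came from separate females or cultures. P-values therefore measure only the spread between these libraries. Groups of 2 libraries that do not overlap have a two-sided p of 0.333 in an exact permutation test. Such separations are descriptions, and their share over all genes is not given here.

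All 9 genes lie on autosomes. The start sites of the 3 genes whose level changed with stage are shown with that of Tet3, to set their promoters side by side. Tet3 was the Tet gene with the highest mean CPM in each condition. Each sequence is the 250 bases before the start of the transcript that the GENCODE annotation of GRCm39 (mm39) marks as canonical, on the gene's own strand, with CpG in capitals. The windows are chr9:20864276-20864525 (- strand) for Dnmt1, chr17:37313130-37313379 (+ strand) for Zfp57, chr10:62715794-62716043 (- strand) for Tet1 and chr6:83433375-83433624 (- strand) for Tet3.
Dnmt1: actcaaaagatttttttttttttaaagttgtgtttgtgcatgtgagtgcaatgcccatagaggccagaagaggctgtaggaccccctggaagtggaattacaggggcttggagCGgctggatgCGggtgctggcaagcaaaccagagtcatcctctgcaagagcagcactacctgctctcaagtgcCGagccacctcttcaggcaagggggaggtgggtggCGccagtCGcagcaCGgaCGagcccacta
Zfp57: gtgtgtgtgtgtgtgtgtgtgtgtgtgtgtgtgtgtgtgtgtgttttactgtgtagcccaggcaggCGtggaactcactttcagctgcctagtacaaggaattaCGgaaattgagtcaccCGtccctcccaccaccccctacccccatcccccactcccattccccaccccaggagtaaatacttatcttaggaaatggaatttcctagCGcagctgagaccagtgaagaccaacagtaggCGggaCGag
Tet1: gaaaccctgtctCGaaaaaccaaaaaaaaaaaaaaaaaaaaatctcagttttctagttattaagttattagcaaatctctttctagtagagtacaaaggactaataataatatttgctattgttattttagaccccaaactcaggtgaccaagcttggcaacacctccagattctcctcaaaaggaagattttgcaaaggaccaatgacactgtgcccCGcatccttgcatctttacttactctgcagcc
Tet3: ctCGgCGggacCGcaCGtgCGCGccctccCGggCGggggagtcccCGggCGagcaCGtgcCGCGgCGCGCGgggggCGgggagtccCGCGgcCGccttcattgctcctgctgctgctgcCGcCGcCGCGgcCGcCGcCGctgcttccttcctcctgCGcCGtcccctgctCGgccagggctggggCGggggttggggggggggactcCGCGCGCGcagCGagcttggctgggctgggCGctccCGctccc
The Tet3 window held 38 CpG and the Tet1 window 2. Those of Dnmt1 and Zfp57 held 7 and 6. Over the windows of 21770 protein-coding genes the median was 8 CpG, with quartiles of 3 and 16, and 0.997% of the windows held at least as many as Tet3. Dnmt3a had 39 CpG in its window, Dnmt3b and Tet2 had 17, Uhrf1 had 7 and Dnmt3l had 4. The letters GGATTA, searched on both strands as the core of the motif bound by OBOX and related homeodomain proteins, were in none of the 9 windows and in 7% of all windows. Counts per gene do not tell which start was used, and several of these genes have alternative starts, among them Dnmt1 with its oocyte form.

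The reads were counted per gene, and no strand-specific preparation is described, so that reads from exons shared with a gene on the opposite strand cannot be told apart. Tet3 shares 1512 exonic bases with Bola3, and Zfp57 shares 1474 with Mog and 139 with H2-M5. Bola3 had 2.19 to 14.9 CPM, Mog 0 to 3.21 CPM and H2-M5 0 to 7.49 CPM over all libraries, against 54.9 to 261 CPM for Tet3 and 46.7 to 1612 CPM for Zfp57. The other overlaps were 208 bases of Dnmt3b with Dnmt3bos, 133 of Dnmt3a with Dnmt3aos, 67 of Dnmt3l with Aire and 66 of Tet2 with Gm42567.

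From the early to the late 2-cell stage, Dnmt1 and Zfp57 fell and Tet1 rose, both in G&N and in G&N-L embryos. These were 3 of the 9 genes in each medium and had an adjusted p under 0.05 in the quasi-likelihood test of edgeR, run over all genes. In G&N, 13.7% of the 19443 genes tested were called, 8.18% higher and 5.47% lower in late embryos. In G&N-L, 11.8% of 18604 were called, 5.97% higher and 5.87% lower. The median log2 fold change was -0.15 over the 9 genes and 0.08 over all genes in G&N, and -0.11 and 0.15 in G&N-L. When libraries were scaled by their totals in place of TMM, the median of all genes became 0.46 and 0.51, with 2005 genes higher and 618 lower in G&N against 1591 and 1063 by TMM, and 1819 higher and 685 lower in G&N-L against 1111 and 1092 by TMM. Dnmt1, Zfp57 and Tet1 were called under both scalings. Leaving out a late library lowered the calls over all genes, to 220 of 22446 without late G&N replicate 1 and 283 of 22246 without replicate 2, and to 335 of 21201 and 678 of 21336 in G&N-L.

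**Figure D1:**
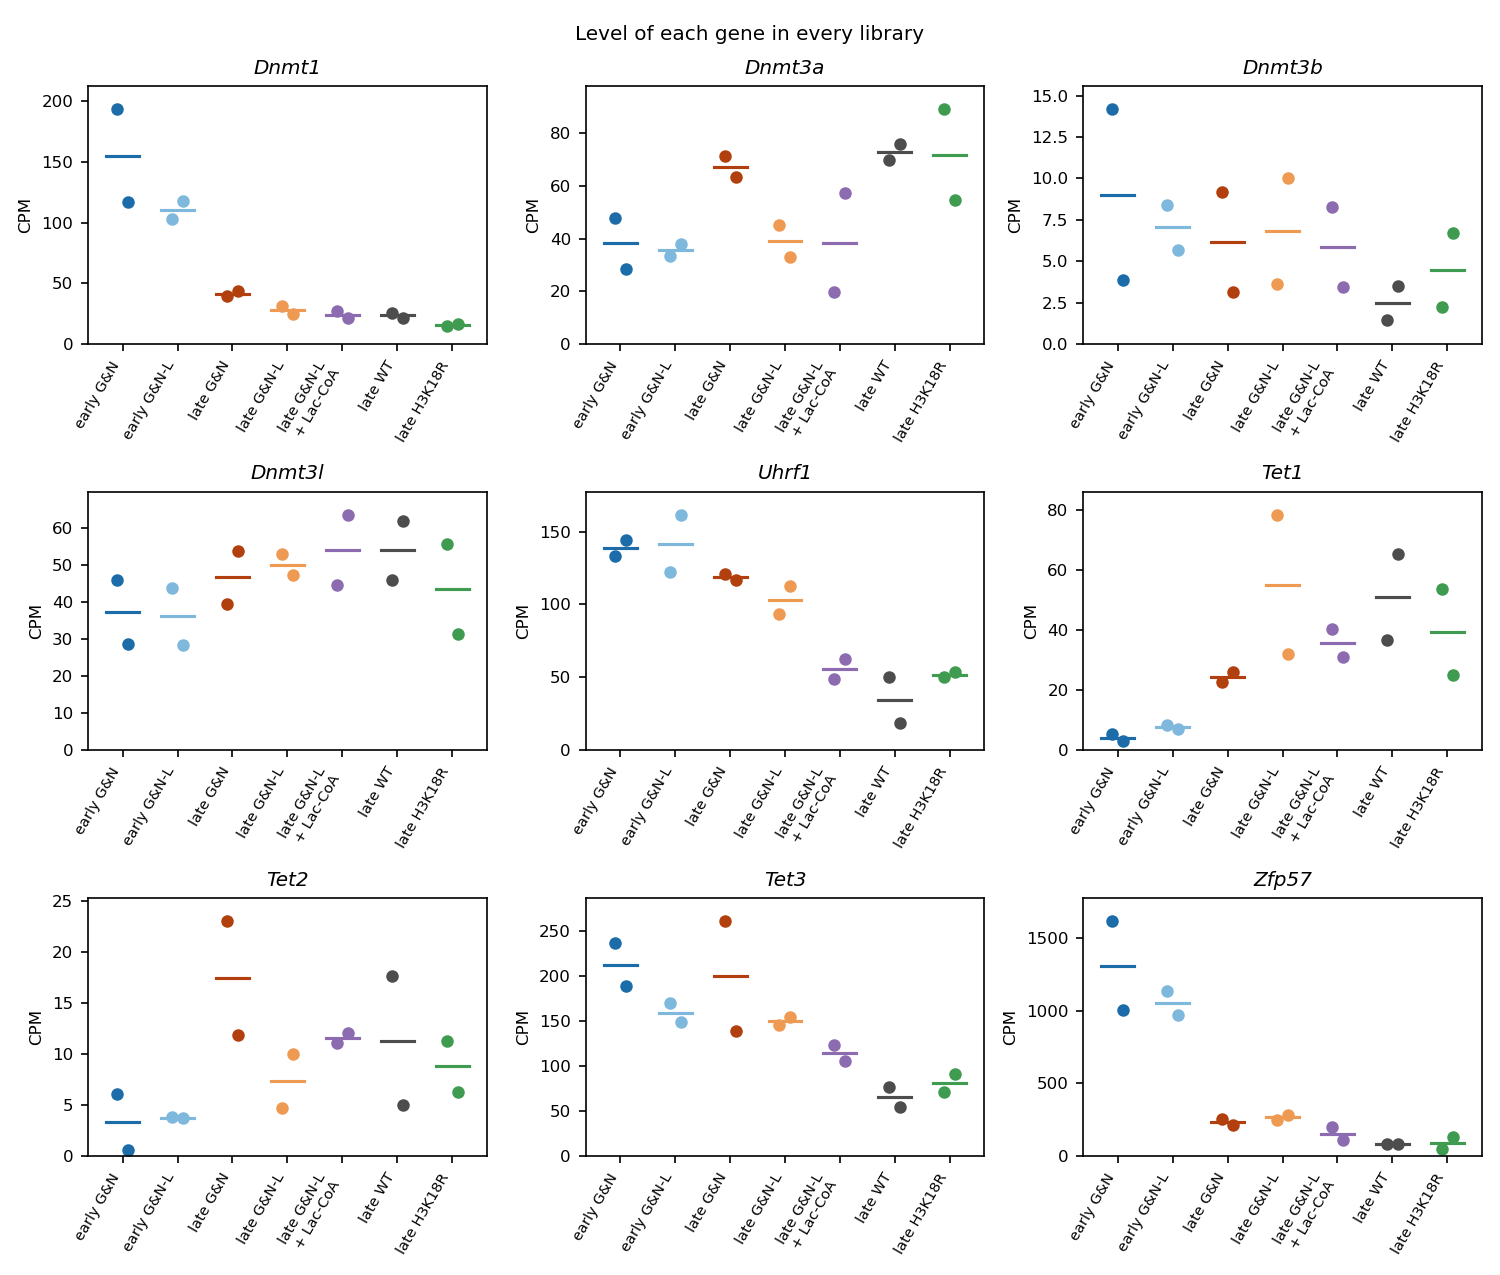
Level of each of the 9 genes in every library, in CPM on a linear axis from 0, with 1 panel per gene and the 7 conditions along the horizontal axis. Points are libraries and lines are the means of 2; Dnmt1 and Zfp57 lie higher in all 4 early libraries than in all 10 late ones, and Tet1 lies lower.

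Dnmt1 (ENSMUSG00000004099, chromosome 9, 20817945 to 20871184, - strand) encodes the maintenance methyltransferase. Its level was 193 and 117 CPM in the early G&N libraries and 103 and 118 CPM in the early G&N-L libraries. In late embryos it was 39.6 and 43.6 CPM in G&N, 31.6 and 24.4 CPM in G&N-L, 27.3 and 21.0 CPM with Lac-CoA, 25.6 and 21.6 CPM in WT, and 15.2 and 16.3 CPM in H3K18R. All 4 early libraries lay above all 10 late ones, and late G&N lay above every other late condition. The log2 fold change from early to late was -1.95 (standard error 0.30, adjusted p = 0.0186, edgeR) in G&N, from 155 ± 53.7 to 41.6 ± 2.88 CPM (SD, n = 2). In G&N-L it was -2.04 (standard error 0.25, adjusted p = 0.0133, edgeR), from 110 ± 11.0 to 28.0 ± 5.07 CPM (SD, n = 2). The summed oocyte and embryo markers fell between the same libraries, and their part in this result was not tested. The call was lost without G&N late replicate 1 (-1.90, adjusted p = 0.104, edgeR) or 2 (-2.03, 0.0916), and without G&N-L late replicate 1 (-2.23, 0.0632) or 2 (-1.82, 0.0633), each of which leaves 1 late library.

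Uhrf1 (ENSMUSG00000001228, chromosome 17, 56610275 to 56630489, + strand) encodes DNMT1's guide to replicated DNA. Its level was 133 and 144 CPM in early G&N and 122 and 161 CPM in early G&N-L embryos. Late embryos had 121 and 117 CPM in G&N and 93.4 and 113 CPM in G&N-L, which is below the early libraries of the same medium. Levels were lower in the injected embryos, at 48.7 and 62.2 CPM with Lac-CoA, 49.9 and 18.6 CPM in WT and 50.1 and 53.3 CPM in H3K18R. The log2 fold change with stage was -0.30 (standard error 0.26, adjusted p = 0.483, edgeR) in G&N and -0.53 (standard error 0.24, adjusted p = 0.206, edgeR) in G&N-L. Neither passed the test, and scaling by library totals turned the G&N value to 0.098.

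Of the genes for new methylation, Dnmt3a (ENSMUSG00000020661, chromosome 12, 3856007 to 3964443, + strand) had 47.8 and 28.6 CPM in early G&N and 33.5 and 38.0 CPM in early G&N-L embryos. Late embryos had 71.2 and 63.5 CPM in G&N, 45.3 and 33.2 CPM in G&N-L and 19.5 and 57.4 CPM with Lac-CoA. WT had 69.9 and 76.0 CPM and H3K18R 89.0 and 54.5 CPM. Late G&N lay above early G&N without overlap, while late and early G&N-L overlapped. The log2 fold change with stage was 0.77 (standard error 0.33, adjusted p = 0.165, edgeR) in G&N and 0.07 (standard error 0.29, adjusted p = 0.912, edgeR) in G&N-L. DESeq2 called Dnmt3a in G&N (adjusted p = 0.0468), where it called 31.9% of all genes, and not in G&N-L (adjusted p = 0.866), where it called 29.8%.

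Dnmt3b (ENSMUSG00000027478, chromosome 2, 153490861 to 153529650, + strand), the other new-site enzyme, had few reads and replicates that lay far apart. Early G&N had 14.2 and 3.85 CPM, early G&N-L 8.42 and 5.67, late G&N 9.17 and 3.17 and late G&N-L 3.62 and 10.02 CPM. Lac-CoA embryos had 8.31 and 3.41 CPM, WT 1.48 and 3.52 CPM and H3K18R 2.25 and 6.71 CPM. The conditions overlapped in nearly every order, and the stage changes of -0.55 and -0.11 on the log2 scale had standard errors of 0.87 and 0.69. Its rodent paralog Dnmt3c, whose protein methylates young retrotransposons in male germ cells, had 14 to 51 counts in the 4 early libraries. In late embryos it had 0 counts in both G&N and both H3K18R libraries, 27 and 1 in G&N-L, 15 and 0 with Lac-CoA and 7 and 6 in WT. A count of 0 allows up to 3 counts, for counting error only, and reads of Dnmt3b and Dnmt3c may be assigned to each other since the genes are alike.

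Dnmt3l (ENSMUSG00000000730, chromosome 10, 77877781 to 77899456, + strand), the gene of the non-catalytic partner, had 45.8 and 28.7 CPM in early G&N, 43.8 and 28.4 CPM in early G&N-L, 39.5 and 53.7 CPM in late G&N and 52.9 and 47.2 CPM in late G&N-L embryos. Its level was 44.7 and 63.3 CPM with Lac-CoA, 45.9 and 62.0 CPM in WT and 55.6 and 31.3 CPM in H3K18R. Each condition overlapped its neighbour in the order of means, while late G&N-L lay above early G&N-L without overlap. The stage changes were 0.27 (standard error 0.35) in G&N and 0.42 (standard error 0.28) in G&N-L on the log2 scale, and neither passed the test (adjusted p = 0.657 and 0.387, edgeR).

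Tet1 (ENSMUSG00000047146, chromosome 10, 62640349 to 62744775, - strand) was the gene that rose. It had 5.20 and 2.87 CPM in early G&N and 8.24 and 7.03 CPM in early G&N-L embryos. Late embryos had 22.8 and 25.9 CPM in G&N, 78.1 and 32.1 CPM in G&N-L, 40.3 and 30.9 CPM with Lac-CoA, 36.6 and 65.3 CPM in WT and 53.7 and 25.0 CPM in H3K18R. All early libraries lay below all late ones, and G&N lay below G&N-L at both stages. The log2 fold change with stage was 2.55 (standard error 0.50, adjusted p = 0.0332, edgeR) in G&N, from 4.03 ± 1.65 to 24.3 ± 2.18 CPM (SD, n = 2). It was 2.80 (standard error 0.51, adjusted p = 0.0313, edgeR) in G&N-L, from 7.63 ± 0.858 to 55.1 ± 32.5 CPM (SD, n = 2). The call was lost in G&N without early replicate 2 (adjusted p = 0.0775, edgeR) or late replicate 1 (0.117) or 2 (0.133), and in G&N-L without early replicate 1 (0.0856) or 2 (0.0973) or late replicate 1 (0.1), with a value of at least 2.02 in each of these fits.

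Tet2 (ENSMUSG00000040943, chromosome 3, 133169436 to 133250900, - strand) was low in early embryos. It had 6.12 and 0.569 CPM in early G&N, 3.81 and 3.72 CPM in early G&N-L, 23.0 and 11.9 CPM in late G&N and 4.68 and 10.02 CPM in late G&N-L embryos. Lac-CoA embryos had 11.1 and 12.1 CPM, WT 17.7 and 4.97 CPM and H3K18R 11.3 and 6.31 CPM. Late libraries lay above the early ones of the same medium, with log2 fold changes of 2.40 (standard error 1.099, adjusted p = 0.194, edgeR) and 0.90 (standard error 0.66, adjusted p = 0.440, edgeR). DESeq2 called the first (adjusted p = 0.0491), and so did edgeR without early G&N replicate 1 (4.89, adjusted p = 0.0294). Without early G&N replicate 2 the value was 1.58 (adjusted p = 0.281, edgeR), and without late G&N replicate 1 or 2 it was 1.82 or 2.79 (adjusted p = 0.477 and 0.280, edgeR).

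Tet3 (ENSMUSG00000034832, chromosome 6, 83339355 to 83436066, - strand), the egg's dioxygenase gene, had 237 and 189 CPM in early G&N and 170 and 149 CPM in early G&N-L embryos. Late G&N embryos had 261 and 139 CPM and late G&N-L 146 and 155 CPM, both overlapping the early libraries of their medium. Levels were 124 and 106 CPM with Lac-CoA, 76.8 and 54.9 CPM in WT and 70.9 and 91.4 CPM in H3K18R, and these injected embryos lay below all other libraries. The stage changes of -0.15 (standard error 0.36) and -0.15 (standard error 0.16) on the log2 scale did not pass the test (adjusted p = 0.825 and 0.632, edgeR), and scaling by library totals turned them to 0.25 and 0.22.

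Zfp57 (ENSMUSG00000036036, chromosome 17, 37298936 to 37326192, + strand), the imprint protector, had the highest level of the 9 genes in every early library. It had 1612 and 1001 CPM in early G&N and 1134 and 968 CPM in early G&N-L embryos. Late embryos had 258 and 213 CPM in G&N, 249 and 285 CPM in G&N-L, 197 and 113 CPM with Lac-CoA, 80.3 and 80.0 CPM in WT and 46.7 and 128 CPM in H3K18R. The early libraries lay above all late ones, and all G&N and G&N-L late libraries lay above the injected embryos. The log2 fold change with stage was -2.52 (standard error 0.29, adjusted p = 0.0106, edgeR) in G&N, from 1307 ± 432 to 235 ± 31.5 CPM (SD, n = 2). It was -2.04 (standard error 0.15, adjusted p = 0.00578, edgeR) in G&N-L, from 1051 ± 118 to 267 ± 25.5 CPM (SD, n = 2). Here too the oocyte and embryo markers fell between the same libraries, and their part was not tested. In G&N-L the call held without each of the 4 libraries, and in G&N it was lost without late replicate 1 (-2.69, adjusted p = 0.0634, edgeR) or 2 (-2.40, 0.0718).

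**Figure D2:**
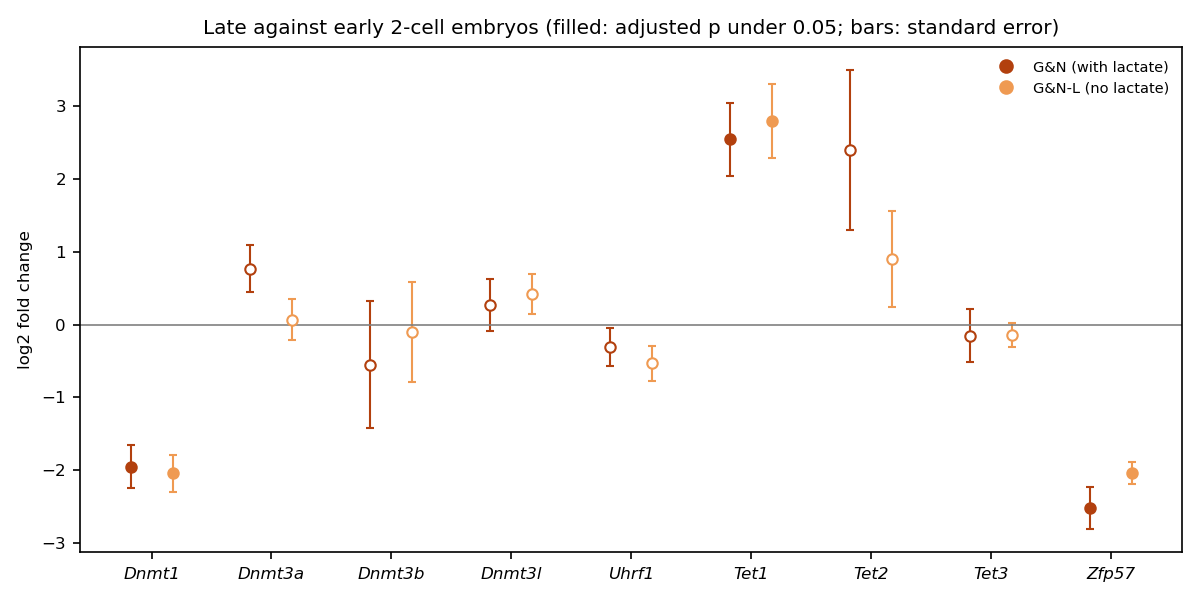
Log2 fold change of the 9 genes from early to late 2-cell embryos, in G&N (dark) and G&N-L (light). Points are fitted values, bars are standard errors, and filled points have an adjusted p under 0.05; Dnmt1 and Zfp57 are filled below 0 and Tet1 above 0 in both media.

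The change with stage was set against lactate in 1 model of the 8 libraries that combine stage and medium. The difference between the stage changes, G&N-L minus G&N on the log2 scale, ran from -1.55 (standard error 1.34) for Tet2 to 0.44 (standard error 0.30) for Zfp57. The Tet2 value was -3.91 without early G&N replicate 1 and -0.61 without replicate 2. The difference was -0.75 (standard error 0.44) for Dnmt3a, -0.14 (standard error 0.39) for Dnmt1 and 0.21 (standard error 0.67) for Tet1. By edgeR, none of the 9 genes passed (lowest adjusted p = 0.719) and none had an unadjusted p under 0.05, against 0% and 7.55% of 22287 genes, and DESeq2 called none of the 9, against 1.25%.

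The make-up of each family was compared per length, as CPM per kilobase of exon. The length was that of all annotated exons of a gene together, not of the transcript in use. Shares and orders between genes are therefore approximate. Dnmt1 took 40.8 to 54.3% of the summed level of the 4 Dnmt genes in early libraries and 7.01 to 20.1% in late ones. The share of Dnmt3l was 34.9 to 48.0% early and 55.4 to 76.3% late, so that in each late library Dnmt3l was the most abundant Dnmt transcript per kilobase. It was also first in early G&N-L replicate 1, at 48.0% against 40.8% for Dnmt1. Dnmt3a held 6.57 to 8.49% early and 5.68 to 20.6% late, and Dnmt3b 2.44 to 5.35% early and 1.07 to 7.43% late. Among the Tet genes, Tet3 held 93.1 to 98.1% early and 42.2 to 84.9% late, and Tet1 1.61 to 4.87% early and 8.01 to 54.3% late. Tet1 was above Tet3 only in WT replicate 2, at 54.3% against 42.2%. Tet2 held 0.278 to 2.32% early and 1.88 to 12.5% late. The level of Dnmt3l itself did not pass the test between stages.

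**Figure D3:**
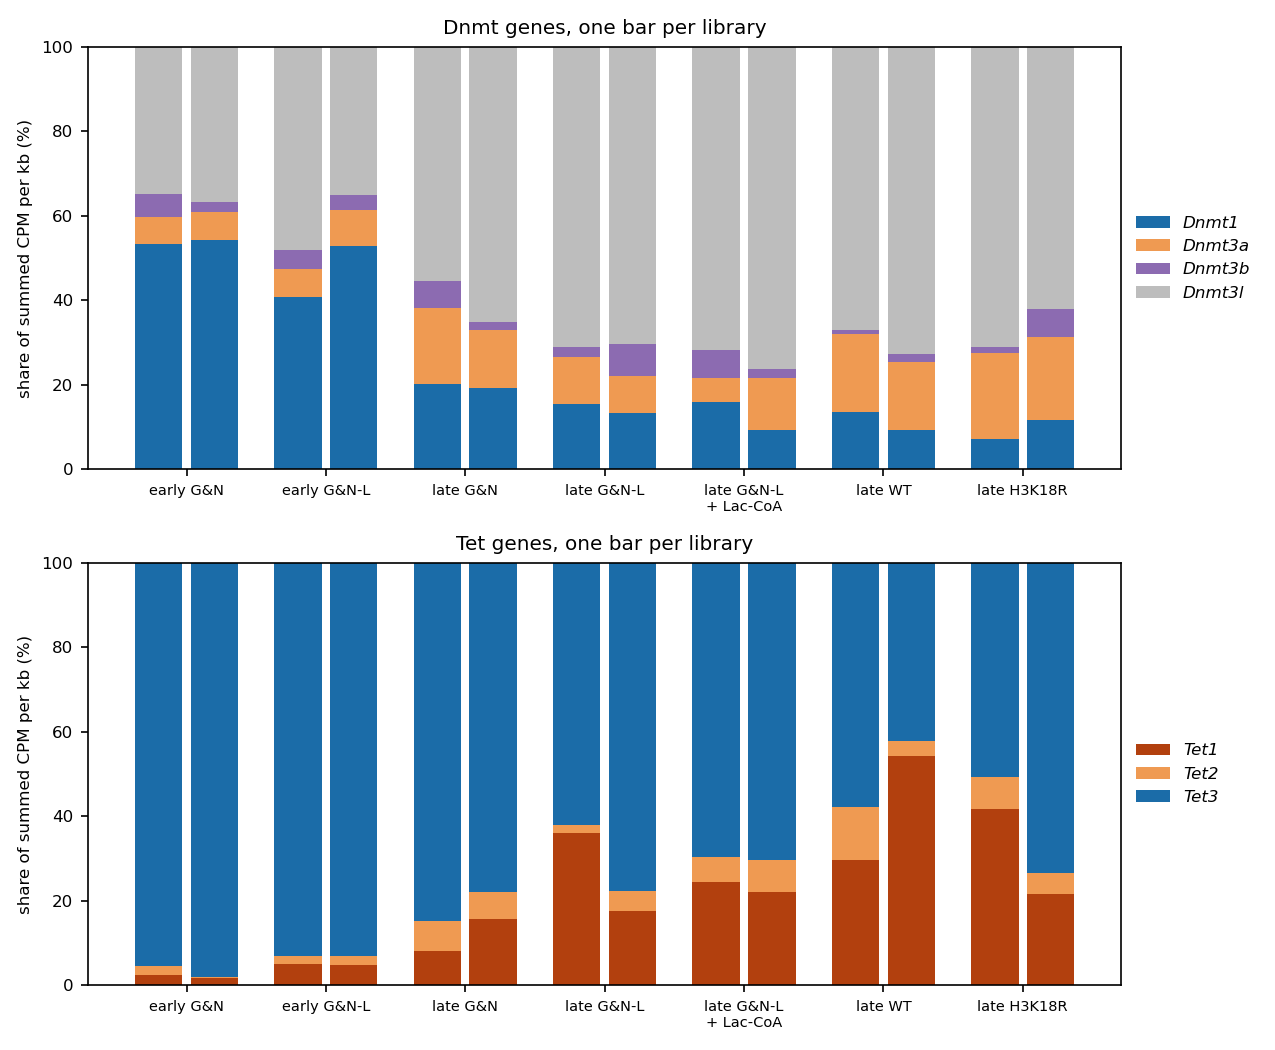
Share of each gene in the summed level of its family, in percent of CPM per kilobase, with 1 stacked bar per library and the Dnmt genes above the Tet genes. The Dnmt1 part is 40.8 to 54.3% in early and 7.01 to 20.1% in late libraries, and the Tet1 part grows from at most 4.87% to at least 8.01%.

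In early G&N embryos the order per kilobase was Zfp57 (142), Uhrf1 (26.3), Dnmt1 (18.3), Tet3 (12.8), Dnmt3l (12.1), Dnmt3a (2.24), Dnmt3b (1.45), Tet1 (0.261) and Tet2 (0.189). Dnmt1 overlapped Tet3, Tet3 overlapped Dnmt3l, Dnmt3a overlapped Dnmt3b and Tet1 overlapped Tet2. In late G&N embryos the order was Zfp57 (25.6), Uhrf1 (22.5), Dnmt3l (15.1), Tet3 (12.0), Dnmt1 (4.89), Dnmt3a (3.95), Tet1 (1.57), Dnmt3b (0.995) and Tet2 (0.983). There Dnmt3l overlapped Tet3, Tet1 overlapped Dnmt3b and Dnmt3b overlapped Tet2. Zfp57 and Uhrf1, at 142 and 26.3 in early embryos, lay near each other late without overlapping. In WT embryos Dnmt3l came first at 17.5, ahead of Zfp57 at 8.71 and Uhrf1 at 6.50, of which the last pair overlapped.

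Removal of lactate was compared at the late stage, in which the study looks for an effect on activation of the embryo's genome. None of the 9 genes passed in G&N-L against G&N by edgeR, and neither did any other of the 19481 genes (0%). An unadjusted p under 0.05 was reached by Tet1 and Dnmt3a, against 12% of all genes, and DESeq2 called none of the 9 and 4.99% of all genes. Tet1 was higher without lactate in both libraries, at a log2 difference of 1.24 (standard error 0.48, adjusted p = 0.395, edgeR), and without G&N-L replicate 1, the library at 78.1 CPM, the difference was 0.43 (adjusted p = 0.824, edgeR). Dnmt3a was lower in both, at -0.73 (standard error 0.29, adjusted p = 0.415, edgeR). Dnmt1 differed by -0.52 (standard error 0.30, adjusted p = 0.628, edgeR) and Tet2 by -1.22 (standard error 0.61, adjusted p = 0.554, edgeR). The groups did not overlap for 5 of the 9 genes, which were Tet1, Dnmt3a, Dnmt1, Tet2 and Uhrf1. With 2 libraries on each side, such a separation has a two-sided p of 0.333 by exact permutation. Its share over all genes is not given here, so the count is a description. The values of Uhrf1 (-0.16), Dnmt3l (0.16), Dnmt3b (0.17), Zfp57 (0.22) and Tet3 (-0.38) had standard errors of 0.22 to 0.83.

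At the early stage, 30 h post-hCG, none of the 9 genes passed in G&N-L against G&N by edgeR (0% of 17343 genes) or DESeq2 (0.247%), and none had an unadjusted p under 0.05 (4.52%). The largest difference was that of Tet1, at 1.06 (standard error 0.52, adjusted p = 1, edgeR) on the log2 scale. Tet1 and Tet3 were 2 of 9 genes with no overlap between the groups, which has a two-sided p of 0.333 by exact permutation. How many of all genes did so is not given here. Tet3 was lower without lactate at -0.29 (standard error 0.19, adjusted p = 1, edgeR). The other 7 genes ran from -0.34 for Dnmt1 to 0.37 for Tet2, with standard errors of 0.21 to 1.08.

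Lac-CoA embryos were compared with G&N-L, which share their medium, and with G&N, to ask whether levels came back to those with lactate. The comparisons share the Lac-CoA libraries, and no mock-injected embryos were analysed here, so injection and Lac-CoA cannot be told apart. By edgeR none of the 9 genes passed in either comparison, and neither did any gene of 19610 against G&N-L (0%) or of 19613 against G&N (0%). Uhrf1 had the lowest unadjusted p of the 9 genes in both, by edgeR. It had 48.7 and 62.2 CPM with Lac-CoA, against 121 and 117 CPM in G&N and 93.4 and 113 CPM in G&N-L. Its log2 difference was -0.94 (standard error 0.24, adjusted p = 0.294, edgeR) against G&N-L and -1.01 (standard error 0.26, adjusted p = 0.500, edgeR) against G&N. DESeq2 called Uhrf1 alone of the 9 in each, at an adjusted p of 0.0224 and 0.0245, where it called 6.28% and 2.55% of all genes. At an unadjusted p under 0.05 edgeR gave Uhrf1 and Zfp57 against G&N-L (13.3% of all genes) and Uhrf1 against G&N (8.51%). Zfp57 was lower than in G&N-L by -0.83 (standard error 0.31, adjusted p = 0.349, edgeR). Tet3 was also lower without overlap, at -0.43 (standard error 0.20) against G&N-L and -0.72 (standard error 0.37) against G&N, with adjusted p = 0.441 and 0.732 (edgeR). The groups did not overlap for 4 of the 9 genes against G&N-L and for 6 against G&N. The summed oocyte and embryo markers were 1391 to 1908 CPM with Lac-CoA but 2308 to 2345 CPM in G&N and 2467 to 3295 CPM in G&N-L, so that they were lower in the same libraries, and their part was not tested. Tet1 and Dnmt3a, which had the lowest unadjusted p between the late media, had values with Lac-CoA of 0.64 (standard error 0.33) and -0.72 (standard error 0.53) against G&N and -0.68 (standard error 0.48) and -0.09 (standard error 0.55) against G&N-L. Tet2, at -1.22 between the media, was at -0.52 (standard error 0.51) against G&N and 0.61 (standard error 0.57) against G&N-L.

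The H3K18R embryos were compared with WT to ask what depends on lysine 18 of H3. None of the 9 genes passed by edgeR, against 1 of 17704 genes (0.00565%), or by DESeq2 (0.708%), and none had an unadjusted p under 0.05 (6.44%). Dnmt1 was lower in both H3K18R libraries, 15.2 and 16.3 against 25.6 and 21.6 CPM, at a log2 difference of -0.59 (standard error 0.39, adjusted p = 0.885, edgeR). Uhrf1 was higher in both, at 0.60 (standard error 0.52, adjusted p = 0.923, edgeR), with WT libraries of 49.9 and 18.6 CPM, and was 1.49 without WT replicate 1 and 0.047 without WT replicate 2. The other 7 ran from -0.37 for Tet1 to 0.84 for Dnmt3b, and their groups overlapped. The standard errors of the 9 were 0.33 to 1.01 on the log2 scale.

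WT and G&N embryos of the late stage were also set side by side. They differ in the inhibitor and NMN that the labels name, in mRNA injection and in the share of mitochondrial counts, which cannot be told apart. Zfp57 was lower in WT, at 80.2 ± 0.266 against 235 ± 31.5 CPM (SD, n = 2), with a log2 difference of -1.60 (standard error 0.23, adjusted p = 0.0413, edgeR). It was 1 of the 9 genes called, against 4.62% of 18986 genes, 1.94% higher and 2.68% lower in WT. The call was lost without G&N replicate 1 (-1.42, adjusted p = 0.101, edgeR) and without WT replicate 1 (-1.60, 0.0841) or 2 (-1.60, 0.111), and in each of these fits edgeR called 0 genes in all, with 3869 to 4859 at an unadjusted p under 0.05. DESeq2 also called Uhrf1 and Tet3, 3 of the 9 against 22% of all genes. Uhrf1 was lower by -1.84 (standard error 0.50, adjusted p = 0.0902, edgeR) and Tet3 by -1.66 (standard error 0.40, adjusted p = 0.0762, edgeR). Both were called by edgeR with no filter, with a filter of 10 counts in every library and in a fit of all 14 libraries. Those fits called 3668 of 28129, 2971 of 13033 and 1281 of 25041 genes in all, against 877 of 18986 in the main fit. In the fit of all 14 libraries Zfp57 missed the threshold (adjusted p = 0.0502, edgeR). Dnmt1 differed by -0.86 (standard error 0.29, adjusted p = 0.131, edgeR) and Tet1 by 1.03 (standard error 0.37, adjusted p = 0.151, edgeR). Dnmt3a at 0.07 (standard error 0.24) and Dnmt3l at 0.17 (standard error 0.30) overlapped between the groups. The oocyte and embryo markers summed to 717.5 to 905 CPM in WT and 2308 to 2345 CPM in G&N, and their part in these differences was not tested.

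**Figure D4:**
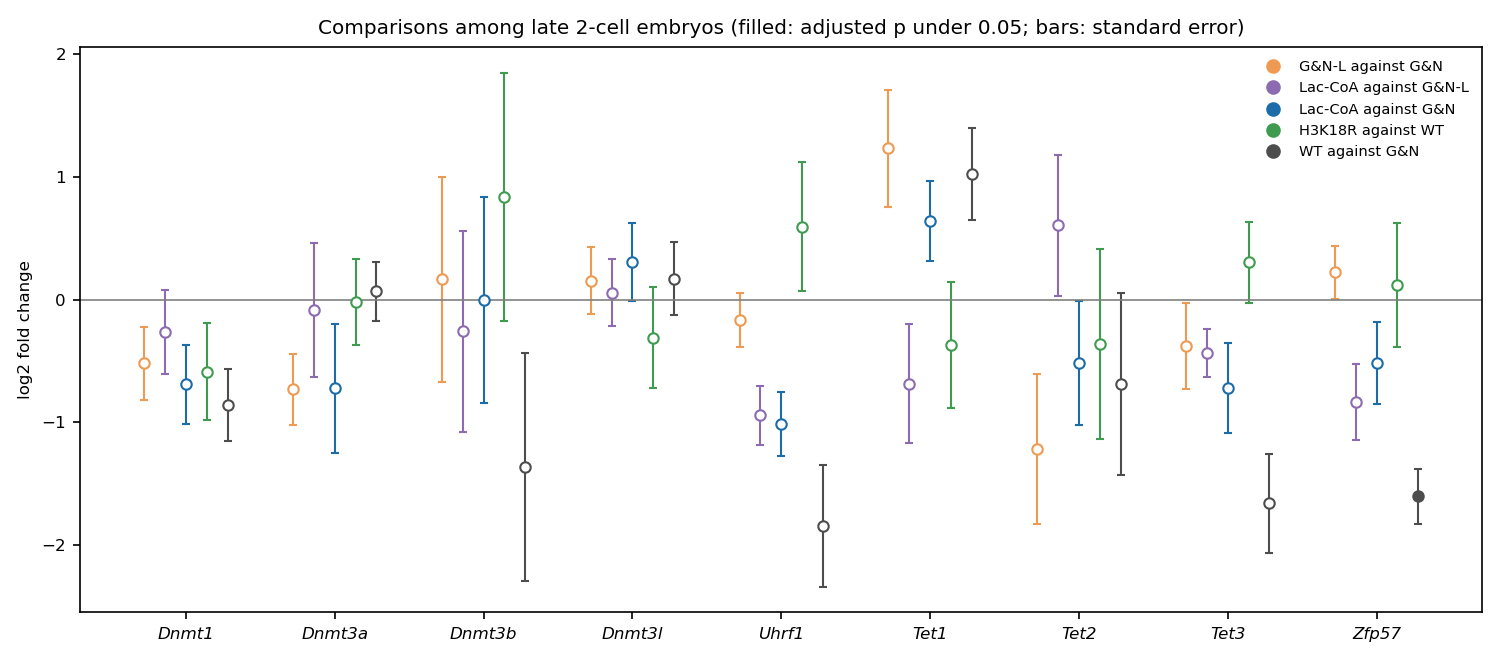
Log2 fold change of the 9 genes in 5 comparisons of late 2-cell embryos, with standard errors as bars and the comparisons in colours. The only filled point, which marks an adjusted p under 0.05, is Zfp57 in WT against G&N at -1.60; several comparisons share libraries.

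Genes that work with the 9 were counted in 3 lists: 15 cofactors and protectors of methylation, 18 genes of base excision and repair, and 14 readers of CpG methylation or of unmethylated CpG. Between early and late G&N embryos, 1 of 15 cofactors rose and 0 fell, 1 of 16 excision genes tested rose and 1 fell, and 1 of 12 readers tested rose and 0 fell, beside 8.18% higher and 5.47% lower over all genes. Setd2, which writes the H3K36 trimethylation that DNMT3 proteins bind, rose from 44.0 ± 11.4 to 285 ± 70.0 CPM (SD, n = 2), which is 2.59 on the log2 scale (standard error 0.38, adjusted p = 0.0164, edgeR). Neil3, a DNA glycosylase gene, fell from 1114 ± 3.93 to 148 ± 1.47 CPM (SD, n = 2), which is -2.98 on the log2 scale (standard error 0.25, adjusted p = 0.00617, edgeR). Gadd45b, a stress-induced gene linked to active demethylation, rose by 4.72 (standard error 0.76, adjusted p = 0.0210, edgeR) on the log2 scale from 0.473 CPM. Kdm2a, which binds unmethylated CpG and demethylates H3K36, rose by 2.08 (standard error 0.47, adjusted p = 0.0458, edgeR). In G&N-L, 1 cofactor rose and 3 fell, 0 of 14 excision genes tested rose and 2 fell, and 0 of 12 readers rose and 1 fell, beside 5.97% and 5.87% over all genes. Setd2 and Neil3 were again among them, at 1.88 (standard error 0.18) and -3.26 (standard error 0.20). The others, named after their values were seen, were Dppa3 (-1.14), which shields maternal methylation from TET3, the chromatin remodeler gene Hells (-1.48), the H3K9 methyltransferase gene Ehmt1 (-1.24), Pcna (-1.54) and Kdm2b (-1.70). The median log2 fold changes of the lists were 0.023, 0.007 and -0.30 in G&N and -0.20, -0.053 and 0.31 in G&N-L, beside 0.08 and 0.15 for all genes. In the other comparisons no gene of the lists passed by edgeR, apart from Neil3 in WT against late G&N, at -2.13 (standard error 0.35, adjusted p = 0.0446, edgeR).

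**Figure D5:**
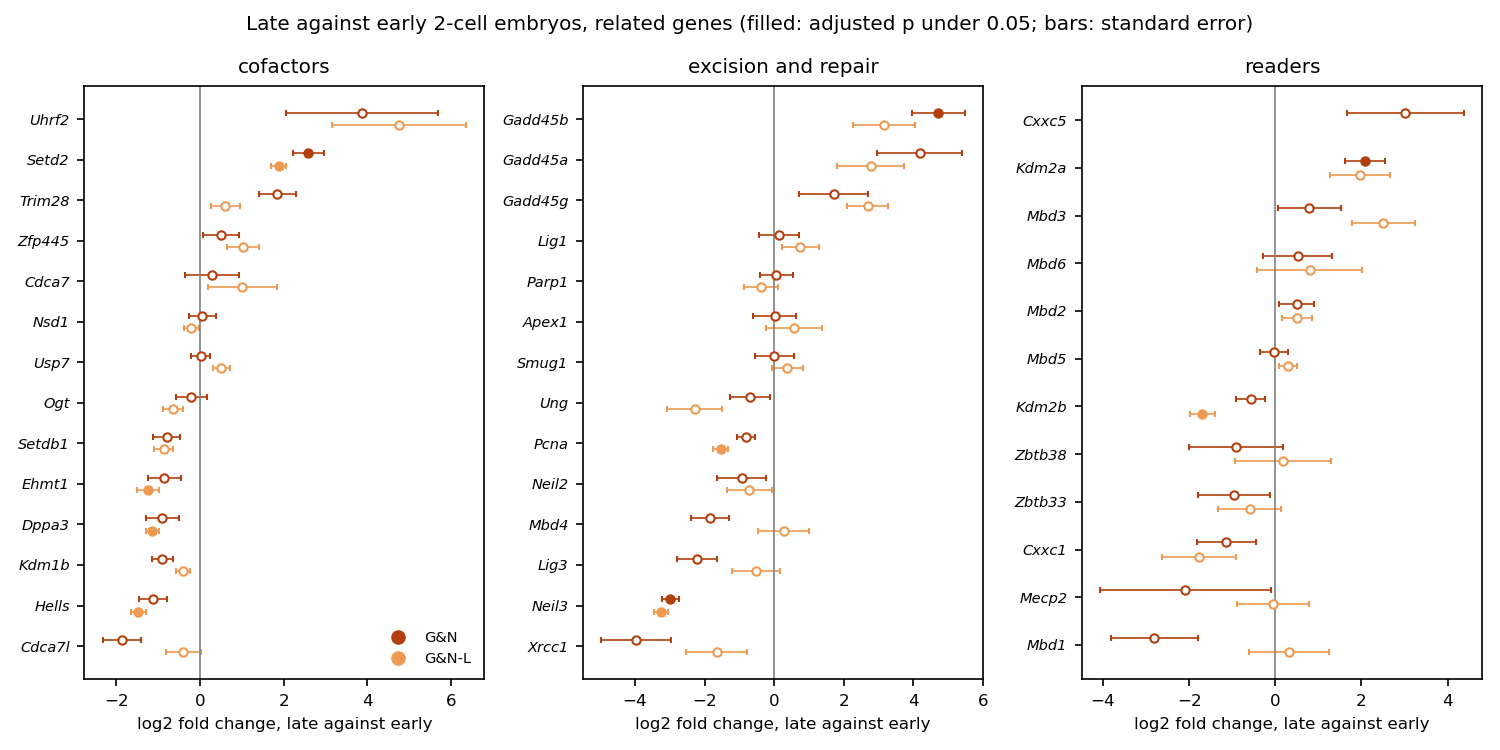
Log2 fold change from early to late 2-cell embryos of cofactors, excision genes and readers, in G&N (dark) and G&N-L (light), with standard errors as bars and filled points at an adjusted p under 0.05. Only points with a mean of at least 0.1 CPM in both groups are drawn; Setd2 is filled above 0 and Neil3 below 0 in both media.

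Across the 14 libraries, Dnmt1 and Zfp57 moved most alike among the 9 genes, with a Pearson correlation of 0.94 of log2(CPM + 1), followed by Uhrf1 and Tet3 at 0.88. Dnmt1 and Tet1 ran opposite at -0.88, and Zfp57 and Tet1 at -0.85. These are descriptions, since the libraries share their stage and condition. Over all genes that passed the filter, leaving out those named only by a Gm number or a Rik name, the nearest patterns were Arf1 (0.98) and Ggct (0.97) for Dnmt1, Oas1e (0.99) and Nup37 (0.99) for Zfp57, and Slco3a1 (0.98) and Ttk (0.96) for Tet3. They were Capsl (0.96) and Fabp9 (0.95) for Tet1, Dnah8 (0.96) and Tnik (0.96) for Uhrf1, and Drosha (0.93) and Jtb (0.90) for Tet2. For Dnmt3a they were Letm1 (0.91) and Dennd5a (0.90), for Dnmt3b Ada (0.89) and Med15 (0.88), and for Dnmt3l Eif3k (0.86) and ENSMUSG00000120049 (0.84).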

How the data were processed

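Per the labels and the study's methods, the authors used FastQC for read quality, Trim Galore for trimming, HISAT2 for alignment to the mm39 genome and featureCounts for counting per gene (versions not given in the sources used here). The deposited values are raw counts for 56923 genes in 14 libraries, without normalization. PCR amplification preceded sequencing, so a limit set by counts covers no more than counting error. Libraries of 1 condition differed by more than counting noise (chi-square per degree of freedom 48.3 to 198).

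Each pair of conditions was fitted with its 4 libraries alone, and the interaction on 8, in R 4.3.3 with edgeR 4.0.16 (default expression filter, TMM, quasi-likelihood test, two-sided, Benjamini-Hochberg adjustment over all genes tested, threshold 0.05). Fold changes use a prior count of 0.125. Levels in CPM use TMM over all 14 libraries, where 25041 genes and all 9 members passed the filter, and levels per kilobase use exon lengths of GENCODE on GRCm39. The 9 genes and the lists of related genes were chosen with earlier results of these data known. All 9 were tested in each comparison, but not every value is printed. Genes without a printed value did not pass by edgeR or DESeq2. Listed genes were named where they were among the 3 largest called changes per list and direction between early and late G&N, or were called in a comparison within a stage. The paralog Dnmt3c and the 2 nearest patterns of each gene were named too. With 2 libraries on each side the lowest two-sided p of an exact permutation test is 0.333, so p-values come from the fits across genes. Alternatives were DESeq2 1.42.0, its size factors, library totals, no filter, 10 counts in every library, 1 fit of all 14 libraries, a replicate block, and each library left out.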

Additional observations from a re-analysis of the deposited data

How the results depend on the processing

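Of 9 genes, 3 were called between early and late G&N embryos, 5 by DESeq2, 2 with the replicate block, and 0 to 4 without 1 library (0 without either late library, where calls over all genes fell from 2654 to 220 and 283, and 1839 with the block). In G&N-L 3 were called, 3 with the block, and 1 to 2 without 1 library. In the other comparisons within a stage and the interaction 0 were called, with 1 by DESeq2 in each Lac-CoA comparison, apart from WT against late G&N. There 1 gene was called, 3 by DESeq2, 3 with no filter, 3 with 10 counts in every library, 2 in 1 fit of all 14 libraries, 2 with the replicate block, and 0 to 1 without 1 library, with 0 to 435 genes called in all. Where a left-out library leaves 1 in its group, that library is taken to vary like the others. Same-numbered libraries did not deviate together (r of -0.048 to 0.023), and the main fits did not pair them. Whether they shared a female or culture cannot be told from this check. The block moved 1 call of the stage comparisons, Tet1 in G&N, to an adjusted p of 0.0627 (edgeR), and added Tet3 in WT against late G&N (adjusted p = 0.0464, edgeR).

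Over all genes, edgeR and DESeq2 called 2654 and 5959 genes in the G&N stage comparison, 2203 and 5218 in G&N-L, 877 and 4104 in WT against late G&N, 1 and 118 in H3K18R against WT, and 0 and 916, 37, 1183, 471 and 224 in late and early G&N-L against G&N, Lac-CoA against G&N-L and G&N, and the interaction. With no filter edgeR called 5060 of 29321 genes in the G&N stage comparison and 3668 of 28129 in WT against G&N. With 10 counts in every library it called 2971 of 13033 in the latter, and in 1 fit of all 14 libraries 1281 of 25041. With the replicate block it called 1839 of 19443 in the G&N stage comparison, 1391 of 18604 in G&N-L and 804 of 18986 in WT against G&N. The cause was not tested.

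No value called in the report turned its sign in these alternatives. Log2 fold changes that were not called turned theirs in the following cases. With library totals they were Uhrf1 0.098 (late against early G&N), Tet3 0.25 (late against early G&N), Dnmt3b 0.26 (late against early G&N-L), Tet3 0.22 (late against early G&N-L), Dnmt3a 0.032 (Lac-CoA against G&N-L), Dnmt3b 0.022 (Lac-CoA against G&N) and Dnmt3a 0.005 (H3K18R against WT). With 10 counts in every library they were Tet3 0.024 (late against early G&N) and Dnmt3b 0.013 (late against early G&N-L). In 1 fit of all 14 libraries they were Dnmt3a -0.094 (early G&N-L against G&N), Dnmt3l -0.046 (early G&N-L against G&N) and Tet3 0.004 (the interaction of stage and lactate). With the replicate block they were Dnmt3b 0.018 (early G&N-L against G&N), Dnmt3b 0.073 (Lac-CoA against G&N) and Zfp57 -0.051 (H3K18R against WT). Without 1 library at a time, 32 of the 81 values turned sign, with these ranges. In late against early G&N, Dnmt3b -1.54 to 0.64 and Tet3 -0.70 to 0.22. In late against early G&N-L, Dnmt3a -0.17 to 0.33 and Dnmt3b -0.96 to 0.47. In late G&N-L against G&N, Dnmt3b -0.73 to 1.19, Dnmt3l -0.013 to 0.43 and Tet3 -0.71 to 0.20. In early G&N-L against G&N, Dnmt3a -0.19 to 0.35, Dnmt3b -0.80 to 0.88, Dnmt3l -0.17 to 0.34, Uhrf1 -0.15 to 0.40, Tet2 -0.48 to 2.74 and Zfp57 -0.40 to 0.087. In Lac-CoA against G&N-L, Dnmt3a -1.04 to 0.49, Dnmt3b -1.05 to 0.65, Dnmt3l -0.19 to 0.28 and Tet1 -1.19 to 0.10. In Lac-CoA against G&N, Dnmt3b -0.79 to 0.98 and Tet2 -0.94 to 0.046. In H3K18R against WT, Dnmt3a -0.43 to 0.29, Dnmt3b -0.15 to 1.59, Dnmt3l -0.79 to 0.047, Tet1 -1.04 to 0.10, Tet2 -1.01 to 0.84 and Zfp57 -0.78 to 0.67. In WT against late G&N, Dnmt3l -0.059 to 0.47. In the interaction of stage and lactate, Dnmt1 -0.43 to 0.17, Dnmt3b -0.67 to 1.38, Dnmt3l -0.16 to 0.40, Uhrf1 -0.54 to 0.034, Tet1 -0.59 to 0.72 and Tet3 -0.43 to 0.50. The standard errors of Dnmt3b, at 1.48 to 14.2 CPM, were 0.66 to 1.18, so that changes of the sizes fitted for it were not detectable.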
